A study of Mus musculus with 3 samples.

Results

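The nuclear receptors are a superfamily of transcription factors, and 42 mouse genes of it were followed here in Meis1-EGFP+ cells sorted from the embryonic kidney. The labels name these cells in different ways: the source of each sample is given as nephrogenic interstitium, which is stroma, and the series title speaks of peripheral blastema. Members were taken as every probe set (a group of short probes read together for 1 transcript) whose platform annotation gives a single symbol among these genes. This gave 103 of the 34945 probe sets with 1 symbol, covering 40 of the 42 genes and 40 of the 18193 genes measured. Nr1h2 and Nr2e3 had no such probe set and were not analysed here.

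The cells came from kidneys of Tg(Meis1-EGFP)FO156Gsat mice on the CD-1 strain at E15.5 (Theiler stage 23). In this transgene a green fluorescent protein is placed under the control of Meis1, so the sort follows the reporter and not a named cell type. Each of the 3 arrays held a pool of about 20 kidneys and the mice were of unknown sex. Per the labels, every pool was treated with trypsin for 5 min at 37 C and passed through a 70 micron mesh. There is 1 group, with no unsorted kidney and no reporter-negative cells, so the comparison made is that of each gene with the background of its own array.

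Most nuclear receptors act as switches: the receptor sits on DNA at short hexamer sites, binds corepressors when empty and exchanges them for coactivators when a small fat-soluble ligand enters its pocket. Retinoic acid, thyroid hormone, vitamin D, fatty acid and sterol receptors work as pairs with a retinoid X receptor, while steroid receptors wait on chaperones and act as pairs of themselves. Others are orphans with no settled ligand. In the embryonic kidney, retinoic acid receptors are known to be needed for Ret expression in the ureteric bud.

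The background level of an array was set at the 95th percentile of 72 odorant, vomeronasal and trace amine receptor genes on the same array, at signals of 135, 185 and 168 in replicates 1, 2 and 3. Each gene is represented by its brightest probe set on average, and its distance is the log2 signal minus that level. Distances were tested above 0 with limma over all genes, one-sided, at an adjusted p threshold of 0.05. Nephrogenic interstitium had all 11 of its marker genes above background (summed signal 200631 to 222544 over the arrays), Meis1 among them. Markers of other cells were above background for 5 of 9 cap mesenchyme genes (summed signal 10098 to 12761), 4 of 8 ureteric bud genes (4644 to 5881), 5 of 8 endothelial genes (2902 to 3398), 2 of 6 adrenal cortex genes (2167 to 2214), 1 of 7 leukocyte genes (916 to 1138) and 0 of 9 tubule and early nephron genes (810.0 to 886). Of all genes measured, 57.3% were above background. The shares of cap mesenchyme (55.6%), ureteric bud (50%) and endothelium (62.5%) lay near that value, and those of the adrenal cortex, leukocyte and tubule lists below it. Within the lists of other cells, defining genes lay on both sides. Six2 (1.86), Eya1 (3.47) and Itga8 (5.47) of cap mesenchyme, Wnt11 (2.06) and Epcam (4.13) of ureteric bud, Tek (2.86) and Kdr (1.07) of endothelium, Mc2r (3.26) of adrenal cortex and Csf1r (1.15) of leukocytes were above background, and Cited1 (-4.20), Ret (-0.34), Pecam1 (-1.64), Star (0.53) and Ptprc (-1.05) were not. In a sorted pool, fewer cells of a type and less RNA per cell cannot be told apart, and the part of such cells in the results was not tested.

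Of the 40 receptor genes, 18 were above background (45%), against 57.3% of all genes measured. The receptor share was the smaller, and no test of the difference was made. The median receptor lay 0.01 log2 units from the level and the median gene 1.52 above it. Of the 40 receptors, 19 exceeded the level on every array (59.2% of all genes did). On every array 16 receptors were below it, as were 6004 of all 18193 genes. The remaining 5, Thrb, Ppara, Nr1h3, Esrrg and Nr6a1, had arrays on both sides. The retinoid X receptors and the COUP-TF group were detected throughout, the HNF4 group and the receptors without a DNA-binding domain not at all, and the lipid, vitamin and xenobiotic sensors in 1 of 8 cases.

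**Figure D1:**
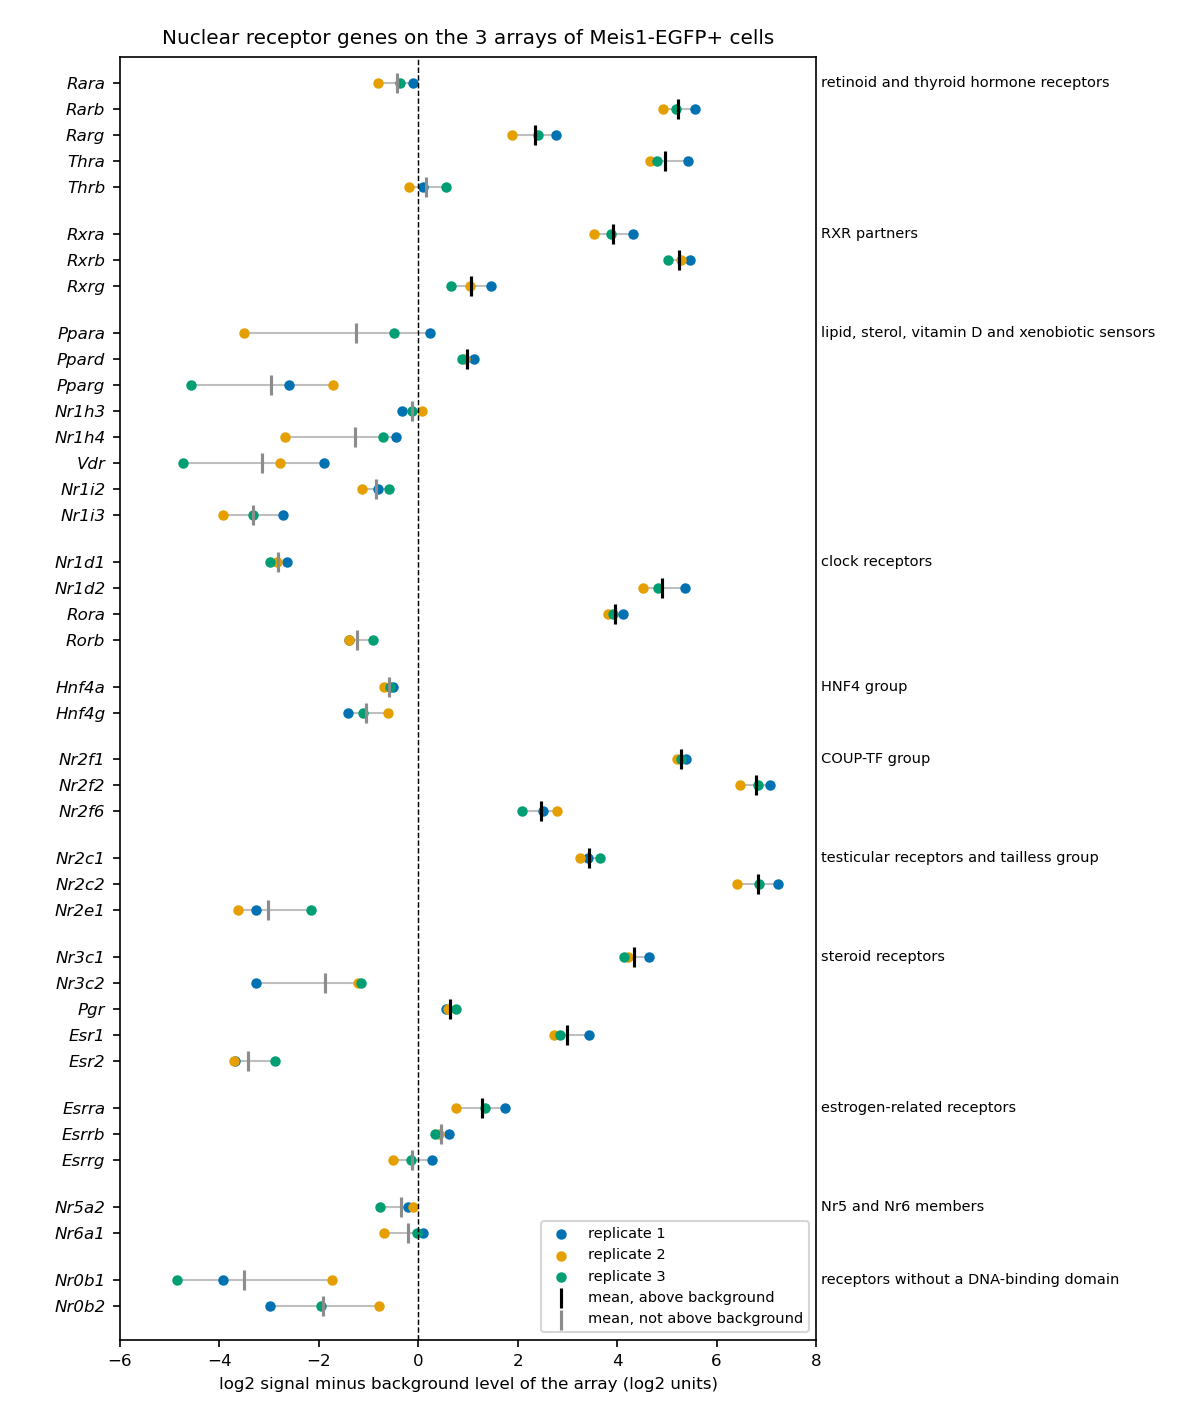
Log2 distance to background (x axis, log2 units) of the 40 measured nuclear receptor genes (y axis, by group), with 1 point per array, a grey line over the range and a bar at the mean, black for the 18 genes above background. Nr2f2 and Nr2c2 lie at 6.79 and 6.83, while Vdr, Nr1i3, Nr2e1, Esr2 and Nr0b1 lie below -3.

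Among the retinoic acid receptors, Rarb and Rarg were above background and Rara was not. Rarb, the receptor that retinoic acid itself switches on in many tissues, is shown first with its promoter, because that promoter holds the best known retinoic acid response element. The sequence is the 250 bases before the RefSeq start of Rarb on the minus strand of GRCm38.p6, chr14:16575477-16575726, with the element in capitals.
Rarb promoter: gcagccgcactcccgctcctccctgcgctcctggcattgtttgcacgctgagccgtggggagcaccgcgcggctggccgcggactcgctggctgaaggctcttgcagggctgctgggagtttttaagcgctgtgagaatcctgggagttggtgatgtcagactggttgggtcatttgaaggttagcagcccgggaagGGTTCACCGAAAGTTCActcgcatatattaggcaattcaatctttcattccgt
The element, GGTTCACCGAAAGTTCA, spans bases -53 to -37 from the start and is a pair of hexamers in direct repeat. Its pattern, GGTTCA and AGTTCA in the same direction with 5 bases of any kind between them, was searched on both strands and occurred in 2 of 32851 RefSeq promoter windows (0.00609%), those of Rarb and Gm52524. The windows run from 250 bases before to 50 after a start. The hexamers inside it are common by themselves: GGTTCA was in 10.4% and AGTTCA in 14% of the same windows. A match describes the letters and does not show a receptor bound there.

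Rarb had signals of 6359.6, 5588 and 6140.2 in replicates 1, 2 and 3. All 3 arrays were far above their levels and within 0.16 log2 units of each other once centred on their medians. The distance was 5.22 ± 0.23 (SE, n = 3; limma adjusted p = 1.58e-06). Rarg, the receptor of skin and cartilage, had signals of 923, 680 and 898, lowest in replicate 2, and lay 2.36 ± 0.25 above (limma adjusted p = 0.000102). That call rests on 1 of its 2 probe sets, since the other lay at -4.10, and the mean over both was below background (-0.68). Rara, the widely made member, has 1 probe set, with signals of 126, 105 and 131, below the level on every array (-0.43 ± 0.23).

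The thyroid hormone receptors also split. Thra, the form that prevails outside liver and pituitary, had signals of 5791, 4678 and 4689 and lay 4.96 ± 0.24 above background (limma adjusted p = 2.43e-06), with 2 of its 3 probe sets above. Thrb had signals of 144, 162 and 246, on either side of the level, and was not above it (0.15, 95% interval -0.43 to 0.73; limma adjusted p = 0.450).

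All 3 retinoid X receptors, the shared partners of the receptors above, were above background. Rxrb had signals of 5925, 7211 and 5442 and lay 5.25 ± 0.21 above (limma adjusted p = 1.28e-06). Rxra had signals of 2697, 2133 and 2465 and lay 3.91 ± 0.24 above (limma adjusted p = 6.61e-06), with its other probe sets at 1.42 and -4.27. These 2 genes were above their levels by a wide margin on every array. Rxrg, the partner best known from muscle and brain, had signals of 372, 378 and 267, lowest in replicate 3, and lay 1.05 ± 0.24 above (limma adjusted p = 0.00446). Its call was lost with a stricter level, the 99th percentile (0.57, limma adjusted p = 0.0820), and with a level from genes restricted to other tissues (0.23, limma adjusted p = 0.391).

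Of the 8 measured sensors of lipids, sterols, vitamin D and foreign compounds, 1 was above background. Ppard, the widely made fatty acid receptor, had signals of 293, 352 and 308.5 and lay 0.97 ± 0.20 above (limma adjusted p = 0.00297). Its other probe set lay at -4.82, the mean over both at -1.73, and the call also ended at the 99th percentile (0.49) and with the tissue-restricted level (0.15). The remaining sensors were dim. Ppara, which drives fatty acid burning in liver and proximal tubule, had signals of 159, 16.4 and 121, with replicate 1 alone above its level (-1.25 ± 0.70). Pparg, the fat cell receptor, had signals of 22.3, 56.6 and 7.12 (-2.96 ± 0.53). Vdr, the vitamin D receptor, had signals of 36.2, 26.9 and 6.36 (-3.13 ± 0.53), and its second probe set lay at -3.14 too.

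The sterol and bile acid sensors stayed near or below the level. Nr1h3, an oxysterol receptor, had signals of 107, 194 and 155, above the level in replicate 2 (-0.13 ± 0.21). Nr1h4, the bile acid receptor, had signals of 98.4, 28.7 and 103 (-1.28 ± 0.46). The xenobiotic sensors of liver and gut were below it on every array, Nr1i2 at -0.85 ± 0.22 and Nr1i3 at -3.32 ± 0.28. Among these dim sensors the spread between arrays differed: after centring, the arrays covered 3.26 log2 units for Ppara and 0.58 for Nr1i2.

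Of 4 receptors tied to the daily clock, 2 were detected and their relatives were not. Nr1d2, a heme-binding repressor of the clock loop, had signals of 5573, 4242 and 4791 and lay 4.91 ± 0.25 above background (limma adjusted p = 2.75e-06), although its other probe set lay at -2.70. Rora, an activator that binds the same sites, had signals of 2338, 2615 and 2555 and lay 3.95 ± 0.20 above (limma adjusted p = 3.13e-06). Rora has 9 probe sets, 6 of them above background at 0.81 to 3.95 and 3 below at -0.77 to -2.20. Nr1d1, the close relative of Nr1d2, had signals of 21.8, 25.7 and 21.4 on its 1 probe set and lay at -2.82 ± 0.21, with little spread. The gene spans of Nr1d1 and Thra overlap in the RefSeq table, and which transcript each probe set reads was not tested. Rorb, known from retina and brain, lay at -1.23 ± 0.22 and none of its 3 probe sets was above background.

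The HNF4 group, whose member Hnf4a is needed to form proximal tubules, was not detected. Hnf4a had signals of 94.9, 114 and 113 and lay at -0.59 ± 0.20, with its 4 probe sets between -0.59 and -5.44. Hnf4g lay at -1.04 ± 0.24 with signals of 50.6, 121 and 78.4. Every array was below its level for both genes. The tubule and early nephron markers were also below or near the level, from Fgf8 at -4.84 to Wnt4 at -0.07.

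The COUP-TF group, orphan receptors that shape mesenchyme in many organs, was above background in full. Nr2f2, a marker of stroma, had signals of 18060, 16302 and 19256 and lay 6.79 ± 0.22 above (limma adjusted p = 8.06e-07). Of its 6 probe sets 5 were above background, at 2.67 to 6.79, and the sixth lay at 0.66 and missed the threshold (limma adjusted p over probe sets = 0.0651). Nr2f1 had signals of 5656, 6833 and 6548 on 1 probe set and lay 5.29 ± 0.20 above (limma adjusted p = 1.06e-06). Both genes are high on all 3 arrays with close values.

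Nr2f6 was the receptor above background that varied most between the pools. Its signals were 767, 1279.6 and 717, with replicate 2 above the others, and it lay 2.46 ± 0.23 above background (limma adjusted p = 5.42e-05). The SD of its centred log2 signal was 0.46, larger than or equal to that of 96.7% of the genes above background. Its second probe set, also above background at 2.02, did not show this pattern: the signals were 832, 690.5 and 488, highest in replicate 1.

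The testicular receptors, orphans that bind the same direct repeats as the retinoid receptors, were above background. Nr2c1 had signals of 1444, 1762 and 2121 and lay 3.44 ± 0.21 above (limma adjusted p = 6.42e-06), with 3 of its 5 probe sets above. Nr2c2 had signals of 20327, 15635 and 19493 and lay 6.83 ± 0.24 above (limma adjusted p = 9.15e-07). That value stands on 1 probe set of 6, since the others ran from 0.20 to -3.83 and none of those passed. The mean over all 6 was 0.13 (limma adjusted p = 0.485). The RefSeq span of Nr2c2 overlaps that of Mrps25, a mitochondrial ribosome gene whose own probe set lay 3.97 ± 0.23 above background, and which transcript the bright Nr2c2 probe set reads was not tested. Nr2e1, a receptor of neural stem cells, had signals of 14.1, 15 and 37.5 and lay at -3.01 ± 0.32.

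Among the steroid receptors, the glucocorticoid receptor Nr3c1 had signals of 3352, 3420.3 and 2975 and lay 4.33 ± 0.22 above background (limma adjusted p = 2.80e-06). Its 6 probe sets split evenly, 3 above at 1.76 to 4.33 and 3 not above at -0.95 to -2.54. Nr3c2, the mineralocorticoid receptor of the collecting duct, had signals of 14.1, 79.3 and 76.2 and lay below its level on every array (-1.87 ± 0.45), lowest in replicate 1.

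The sex steroid receptors differed. Esr1, an estrogen receptor, had signals of 1453, 1223 and 1209.5 and lay 3.0 ± 0.24 above background (limma adjusted p = 2.18e-05). Its other 2 probe sets lay at -1.61 and -1.86, so the mean over all 3 was 0.04 (limma adjusted p = 0.741). Esr2, the other estrogen receptor, had signals of 10.5, 14.1 and 22.9 and lay at -3.42 ± 0.25. Pgr, the progesterone receptor, which estrogen receptors induce in reproductive tissue, was barely above background. Its signals of 198, 281 and 284 gave 0.64 ± 0.20 (limma adjusted p = 0.0176). That call ended without replicate 2 (0.65, limma adjusted p = 0.0621), without replicate 3 (0.58, limma adjusted p = 0.188), at the 99th percentile (0.15), with the tissue-restricted level (-0.18) and with the mean over its 3 probe sets (-1.25).

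The estrogen-related receptors, orphans that drive mitochondrial genes, lay near the level. Esrra had signals of 451, 313 and 426, lowest in replicate 2, and lay 1.28 ± 0.26 above background (limma adjusted p = 0.00260). Its other probe set lay at -0.12 and was not above background. The RefSeq span of Esrra overlaps that of Trmt112, which lay 5.32 ± 0.24 above background, and which transcript the brighter Esrra probe set reads was not tested. The Esrra call ended with the tissue-restricted level (0.46, limma adjusted p = 0.0985). Esrrb exceeded the level on all 3 arrays with signals of 208, 245 and 214, yet missed the threshold (0.46 ± 0.20, limma adjusted p = 0.0572). It passed in the limma fit under a 90th percentile level (0.81, adjusted p = 0.00695), under 1 level shared by all arrays (0.46, adjusted p = 0.0142), after quantile normalization (0.45, adjusted p = 0.0316) and after removal of the dimmest 25% of genes (0.46, adjusted p = 0.0248). The value comes from a probe set of the kind able to cross-hybridise, and without it Esrrb lay at -0.86. Esrrg lay at -0.13 ± 0.24, and its 3 probe sets lay at -0.13, -0.27 and -0.71.

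The last members were not above background. Nr5a2, a receptor of early embryo, liver and gonad, lay at -0.36 ± 0.23 with signals of 117, 172 and 99.1. Nr6a1, a germ cell and early embryo receptor, lay at -0.20 ± 0.24 with signals of 145, 115 and 164.5, and its 5 probe sets all failed the test. Nr0b1 and Nr0b2 lack a DNA-binding domain and act as repressors of other receptors. Nr0b1, a gene of adrenal cortex and gonad, had signals of 8.88, 55.6 and 5.81 (-3.51 ± 0.57), and Nr0b2, a bile acid responsive gene of liver, 17.0, 107 and 43.6 (-1.91 ± 0.42). In both, replicate 2 was the highest and still below its level. Of the adrenal cortex markers, Mc2r (3.26 ± 0.22) and Cyp21a1 (0.56 ± 0.21, limma adjusted p = 0.0343) were above background in the same cells. Cyp21a1 lay near the level, and neither of its 2 probe sets passed in the limma fit over probe sets. Star (0.53 ± 0.27), Cyp11a1 (-1.42 ± 0.32), Cyp11b1 (-1.52 ± 0.37) and Hsd3b1 (-2.89 ± 0.49) were not above background.

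Probe sets of 1 receptor gene often disagreed. Of the 103 probe sets 34 were above background, against 48.7% of all probe sets with 1 symbol, in the limma fit over all of them. Of the 18 detected receptors, 14 have more than 1 probe set, and in 13 of these (92.9%) at least 1 was not above background. The same held for 4519 of 6828 detected genes with more than 1 probe set (66.2%). The gap between the highest and lowest probe set had a median of 5.96 log2 units in the 14 receptors and 4.36 in the 6828 genes, with a median of 3 probe sets in each. Nr2f6 alone of the 14 had all its probe sets above background. Of the 22 undetected receptors, 11 were measured by 1 probe set and 11 by several, all of which failed the test.

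**Figure D2:**
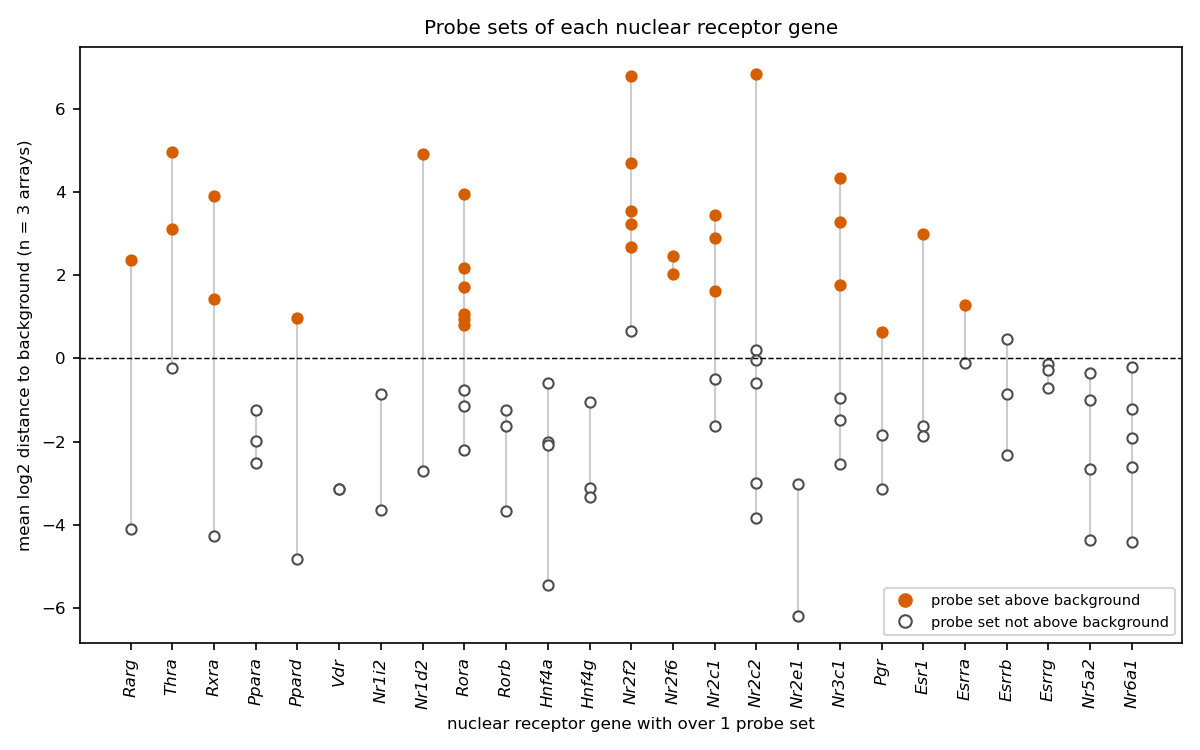
Mean log2 distance to background over 3 arrays (y axis) of every probe set of the receptors with more than 1 (x axis), filled where above background and open where not. Nr2f2 has 5 of 6 above, Rora 6 of 9, and Nr2c2 1 of 6.

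The calls of 32 receptors were the same under every one of the 13 other ways of processing in which the gene was measured, 11 of them above background and 21 not. The 11 were Rarb, Thra, Rxra, Rxrb, Nr1d2, Rora, Nr2f1, Nr2f2, Nr2f6, Nr2c1 and Nr3c1. The other 8 changed in at least 1. Averaging the probe sets of a gene ended 5 calls, those of Rarg, Ppard, Nr2c2, Pgr and Esr1.

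**Figure D3:**
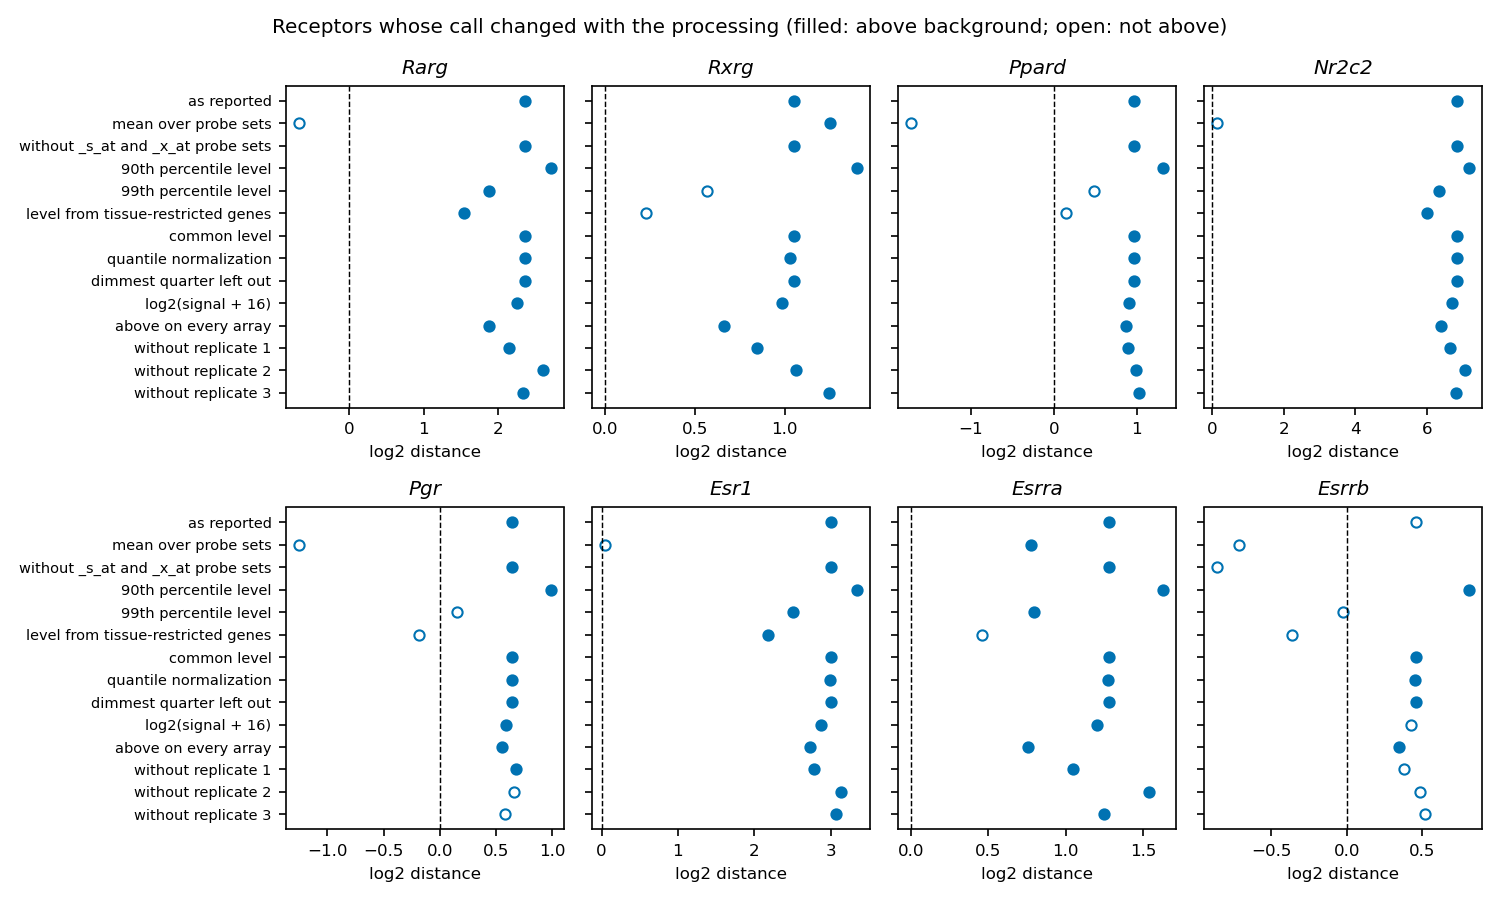
Log2 distance to background (x axis) of the 8 receptors whose call changed, under the reported setting and 13 alternatives (y axis), each panel on its own x scale, filled where above background and open where not. Pgr keeps its call in 8 of 13 alternatives, and Nr2c2 loses it only with the mean over probe sets.

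Between the 3 pools, the detected receptors varied about as much as other detected genes. The median SD of the centred log2 signal was 0.17 over the 18 receptors and 0.16 over all genes above background. Rarb (0.09), Nr3c1 (0.10) and Rora (0.10) varied least, and Nr2f6 (0.46), Pgr (0.31) and Nr2c1 (0.29) most.

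Genes that work with nuclear receptors were mostly detected. All 16 coactivators were above background (median 4.55 log2 units, against 1.52 for all genes). Of these, the p160 coactivators Ncoa1 lay at 4.11 ± 0.24, Ncoa2 at 4.56 ± 0.21 and Ncoa3 at 4.51 ± 0.21, and Ncoa4 lay at 5.26 ± 0.23. Of 10 measured corepressor genes 8 were above (80%, median 5.18), with the deacetylase Hdac3 at 4.59 ± 0.23, its partners Tbl1x at 6.45 ± 0.23 and Tbl1xr1 at 6.15 ± 0.25, and Sin3a at 5.16 ± 0.21. Gps2 (-0.33 ± 0.24) and Hr (-0.02 ± 0.20) were not. The values of Hdac3, Tbl1xr1 and Sin3a come from probe sets of the kind able to cross-hybridise, and Hdac3 has no other. Without such probe sets 7 of 9 corepressor genes were above, against 55.9% of all genes. All 8 measured chaperones of steroid receptors were above (median 6.76), with Hsp90aa1 at 8.28 ± 0.20 and the co-chaperones Fkbp4 at 4.94 ± 0.25, Fkbp5 at 5.86 ± 0.21 and Stip1 at 4.57 ± 0.21. Ncor1, Hsp90ab1, Ptges3 and Ppid had no probe set with 1 symbol and were not analysed here.

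Genes that make, carry or break down ligands were above background in 9 of 17 cases (52.9%, median 1.11). The retinoid enzymes Rdh10 (6.48 ± 0.20) and Aldh1a2 (7.33 ± 0.22) and the retinoic acid carriers Crabp1 (4.52 ± 0.30) and Crabp2 (4.60 ± 0.25) were above. The retinoic acid hydroxylase Cyp26a1 (-2.17 ± 0.37) and the thyroid hormone deiodinase Dio1 (-4.81 ± 0.43) were not. In replicates 1, 2 and 3 Aldh1a2 had signals of 25513.5, 23912.5 and 28860.0.

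Known target genes of detected receptors were mostly above background, in short lists that were not tested against the 57.3% of all genes. Of 8 glucocorticoid targets 7 were above (87.5%, median 3.18), with Tsc22d3 at 5.86 ± 0.21, Per1 at 3.10 ± 0.21, Dusp1 at 3.26 ± 0.25 and Sgk1 at 4.84 ± 0.27, and Zbtb16 not above at -0.94 ± 0.28. Of 6 measured retinoic acid targets 5 were above (83.3%, median 3.61), with Cyp26b1 at 2.63 ± 0.21, Dhrs3 at 5.38 ± 0.23, Stra6 at 0.92 ± 0.24 and Tgm2 at 7.04 ± 0.21, and Cyp26a1 not above at -2.17 ± 0.37. The Tgm2 value comes from a probe set of the kind able to cross-hybridise. Several of these target genes respond to other signals too, and no ligand was added or removed here. The lists overlap: Cyp26a1, Cyp26b1, Dhrs3 and Crabp2 are also among the ligand genes, and Per1 is also among the clock genes below.

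Targets of the fatty acid and sterol receptors were above background in 13 of 14 cases (92.9%, median 4.08), against 57.3% of all genes and with no test of the difference. Of the receptors this list belongs to, Ppard was above background and Ppara, Pparg and Nr1h3 were not. Nr1h2, a further sterol receptor, had no probe set with 1 symbol, so whether it was detected is unknown. Cpt1a lay at 2.21 ± 0.21, Angptl4 at 1.70 ± 0.21, Plin2 at 5.22 ± 0.25 and Acadm at 5.86 ± 0.22, and Pdk4 missed the threshold at 0.42 ± 0.23, which it passed with the 90th percentile level (0.77). Angptl4 rests on a probe set able to cross-hybridise and lay at -3.03 without it. Clock genes were above in 12 of 14 cases (85.7%, median 2.97), with Arntl at 1.81 ± 0.24, Clock at 3.48 ± 0.28, Per1 at 3.10 ± 0.21 and Per2 at 1.81 ± 0.22. Npas2 (0.49 ± 0.27) and Bhlhe41 (-1.79 ± 0.34) were not above, though Npas2 passed with the 90th percentile level (0.84) and without replicate 2 (0.80). Per2 lay at -0.68 with the mean over its probe sets. Stra6 lost its call without replicate 3 (0.69, limma adjusted p = 0.1225), at the 99th percentile (0.44) and with the tissue-restricted level (0.10).

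**Figure D4:**
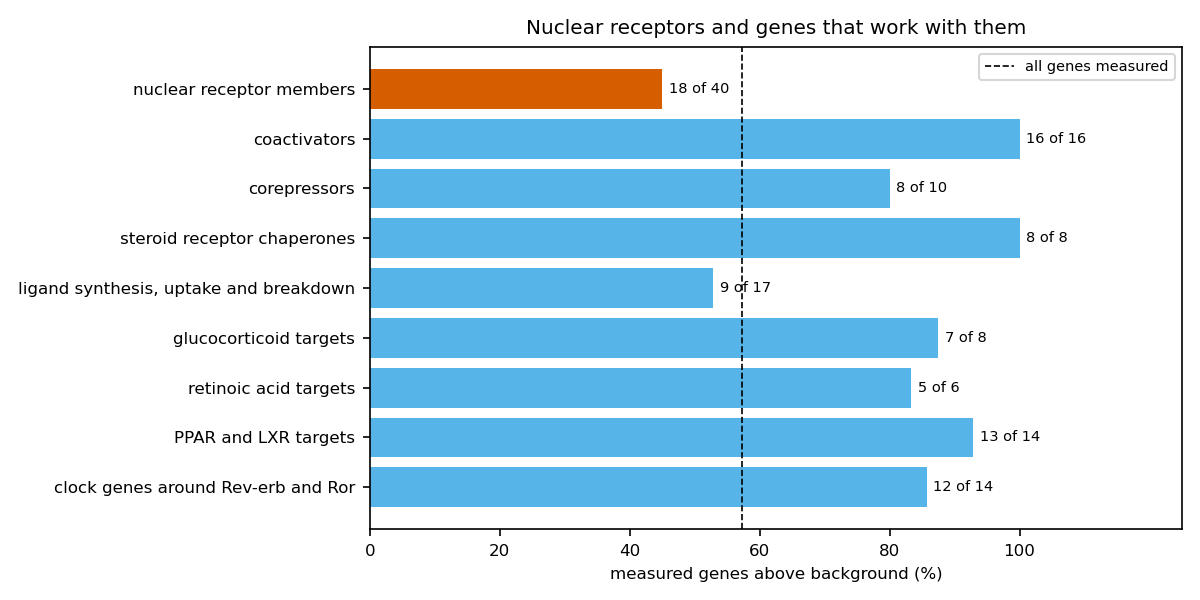
Share of measured genes above background (x axis, %) for the nuclear receptors and the 8 lists of genes that work with them (y axis), with counts beside the bars and all genes measured as a dashed line at 57.3%. The receptors (45%) and the ligand genes (52.9%) lie below that line and the other lists at 80% or more. Some genes are shared between lists.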

How the data were processed

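Each of 3 pools of sorted kidney cells was put on its own Affymetrix array after 2 amplification rounds and biotin labelling, per the labels' protocols. The authors deposited linear intensity values, 1 per probe set and array, made with GCOS per the submitters' processing notes; no source used here gives its version or signal algorithm. The trimmed mean was 1500.01 on each array, so the deposited values had been scaled. Of 45101 probe sets, 64 controls, 932 with several symbols and 9160 with none were set aside.

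The log2 intensity minus the array's background level was fitted with limma 3.58.1 in R 4.3.3 (lmFit, eBayes, prior df 3.88), one-sided, with Benjamini-Hochberg adjustment over 18193 genes, and again over 34945 probe sets. SEs include the spread of the 3 background levels. Nothing in the labels tells whether different litters made up the pools; the p-values thus cover the spread among these 3 samples alone, possibly a technical one. A gene that is not called may still be transcribed. Distances of different genes come from different probes, so their order is no order of transcript amounts, and list medians are descriptions. The number of arrays limits the precision. The detection test was tested on simulated data.

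All measured receptors are named, and of each other list the first 4 genes above background and the first 2 not above; genes outside that rule (Mrps25, Trmt112 and the marker genes) were chosen after their values were seen. Members and lists were chosen with earlier results of these data known. Alternatives changed the probe set rule, the level, the normalization, the filter, the pseudocount and the arrays used. Promoters and gene spans are from RefSeq (GRCm38.p6), where 39 of 42 members matched a promoter; the array files name no build.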

Additional observations from a re-analysis of the deposited data

How the results depend on the processing

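Over 13 alternatives (12 for probe sets), the number of receptor genes above background stayed between 13 (mean over probe sets) and 19, against 18 as reported, and that of probe sets between 26 (level from tissue-restricted genes) and 36, against 34. Leaving out 1 array gave 17 to 18 genes and 29 to 34 probe sets. Counts of the 8 other lists stayed within 1.5 times of those reported, and the median SD of detected receptors within 0.17 to 0.20.

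Below background under an alternative were Rarg (-0.68), Ppard (-1.73), Pgr (-1.25), Angptl4 (-0.47) and Per2 (-0.68) with the mean over probe sets, Pgr (-0.18) with the tissue-restricted level, and Angptl4 (-3.03) without probe sets able to cross-hybridise. For the mean over probe sets the cause lies in its construction, since dim probe sets enter the value; for the others the cause was not tested. Of 39 other named genes, 5 changed their call in at least 1 alternative. Signals near the level (Pgr, Ppard, Rxrg, Esrra, Esrrb) limit those calls. No paired analysis was possible because the series holds 1 group.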

Other observations

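The hexamer AGGTCA, the half-site that most nuclear receptors bind, was searched on both strands in the RefSeq promoter windows of the members. It was present in 12 of 60 windows (20%), which belong to 11 of 39 genes, against 16.3% of all 32851 windows. The genes were Rara, Rarg, Thrb, Rxra, Rxrg, Pparg, Nr1h4, Nr1d2, Nr5a2, Nr6a1 and Nr0b1, and Rxra and Nr6a1 held it at 2 places. The clock E-box CACGTG was in 6 of the 60 windows (10%), against 7.15% of all, and the members with it were Rara, Thrb, Nr1i3, Esr2 and Nr0b2. The Rara windows with it overlap and hold the same site, which is thus counted more than 1 time. These are counts of letters, and no binding was measured.

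One probe set with several symbols names a receptor, Ppard, together with 1810013A23Rik. It was set aside for that reason. Its signals were 66.1, 128 and 124.98 in replicates 1, 2 and 3, below the level on every array (mean distance -0.66), as was the second single-symbol probe set of Ppard.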
